A study of Mus musculus with 4 samples.

Results

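The dystrophin glycoprotein complex was followed through 8 genes in satellite cells, the stem cells of skeletal muscle, taken fresh from mice. The genes are Dmd, Utrn, Dag1, Sspn, Sgca, Sgcb, Sgcd and Sgce, taken by symbol out of 55487 genes in the deposited tables, and each symbol matched 1 row. Sspn was picked on its lower estimated count in the knockout libraries of this same comparison, so its difference is given as a description. The other 7 were chosen by their place in the complex.

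RNA-seq was available for 4 libraries, 2 labelled Control and 2 labelled Rbfox2 cKO, a conditional knockout of the splicing regulator Rbfox2. The cKO animals carried floxed Rbfox2 alleles and Pax7CreERT2, a Cre recombinase made in Pax7-expressing cells and switched on by tamoxifen, so that the deletion falls in satellite cells. A Rosa26 EYFP allele marked the recombined cells with a yellow fluorescent protein. Which of these alleles, and whether tamoxifen, the Control animals received is not given in the sources used here, nor are the age of the animals or the number behind each library. For both groups the labels give fresh isolation as the treatment. The p-values therefore measure the spread between these libraries, which may be technical.

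The complex ties the actin cytoskeleton inside a muscle cell to the basement membrane outside it. Dystrophin, or its autosomal relative utrophin, binds actin and the membrane protein beta-dystroglycan, whose partner alpha-dystroglycan binds laminin through sugar chains. The sarcoglycans and sarcospan form a side group that holds this link in the membrane. Loss of dystrophin, or of some but not all single sarcoglycans, causes muscular dystrophy. In satellite cells dystrophin is also known for its part in cell polarity and asymmetric division.

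The libraries held between 68884091 and 101997422 estimated counts. Levels are given as TPM (transcript abundance corrected for transcript length, so that genes can be compared) and, for the test, as CPM (counts relative to the scaled size of the library). Rbfox2 stood at 49.5 and 27.4 TPM in Control 1 and 2 and at 20.9 and 12.2 TPM in cKO 1 and 2. The 11 satellite cell markers summed to between 17240 and 17840 TPM in all 4 libraries, and each was detected in each library. Sdc4 made up most of this sum, at 10960 to 12060 TPM. Of the 11 markers, Pax7 was higher in both cKO libraries (7.903 and 6.995 TPM in Control, 15.95 and 13.46 TPM in cKO), Cxcr4 and Chrdl2 were lower in both, and the others overlapped. Markers of muscle fibres summed to 95.5 and 94.9 TPM in Control and to 93.5 and 58.3 TPM in cKO. The library cKO 1 was the smallest. Its median gene stood at 0.771 TPM, while that of the other 3 lay between 0.312 and 0.437 TPM.

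The 8 genes covered a wide range of levels. Averaged over the 4 libraries, Dag1 stood highest at 128.2 TPM, and its lowest library, at 84.4 TPM, lay above every value of the other 7 genes. Utrn (35.1 TPM), Dmd (33.5 TPM), Sgce (30.1 TPM; range 26.7 to 33.9 TPM) and Sgca (27.9 TPM) followed, and the ranges of neighbours in this order overlapped. Sgcb came next at 19.4 TPM, then Sspn at 3.53 TPM and Sgcd at 0.432 TPM, each with a range apart from the one above it. Utrn, Dmd, Sgce, Sgca and Sgcb thus lay within a narrow band, with dystroglycan above it and sarcospan and delta-sarcoglycan below. In these bulk samples, fewer cells with a transcript and less of it in each cell cannot be told apart.

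**Figure D1:**
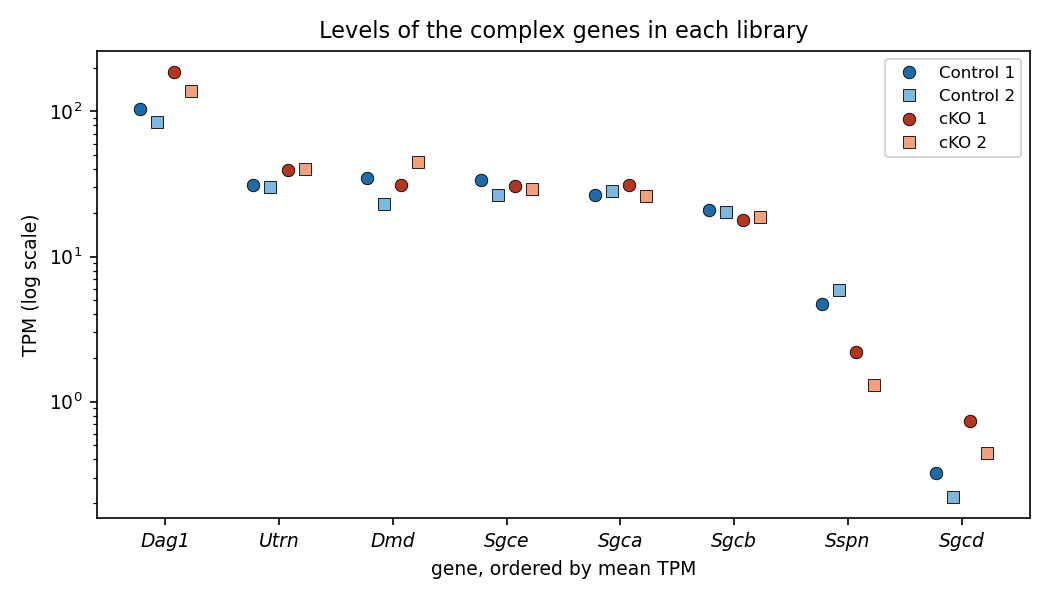
TPM (log scale) of the 8 genes in each library, ordered by mean TPM. Each point is 1 library. Dag1 lay above the other genes in every library, and Sspn is the gene whose cKO points (2.19 and 1.31 TPM) lay farthest under its Control points on this scale (4.74 and 5.87 TPM).

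Of 38143 genes tested in edgeR, 210 passed an adjusted p of 0.05, a background of 0.551%, and 71 of them were lower in cKO (0.186%). Of the 8 genes 1 passed, Sspn, which this result had chosen, and 0 of the other 7 did. The median log2 fold change (cKO minus Control) was 0.07 over the 8 genes, 0.23 over the 7 without Sspn and 0.06 over all genes tested. In CPM, the cKO pair stood wholly above the Control pair for 2 of the 8, Dag1 and Sgcd, and wholly below it for 2, Sspn and Sgcb. Over all genes tested these arrangements held for 18.0% and 13.3%. The 7 genes other than Sspn ranged from -0.30 for Sgcb to 0.93 for Sgcd, with an adjusted p = 1.00 for each.

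**Figure D2:**
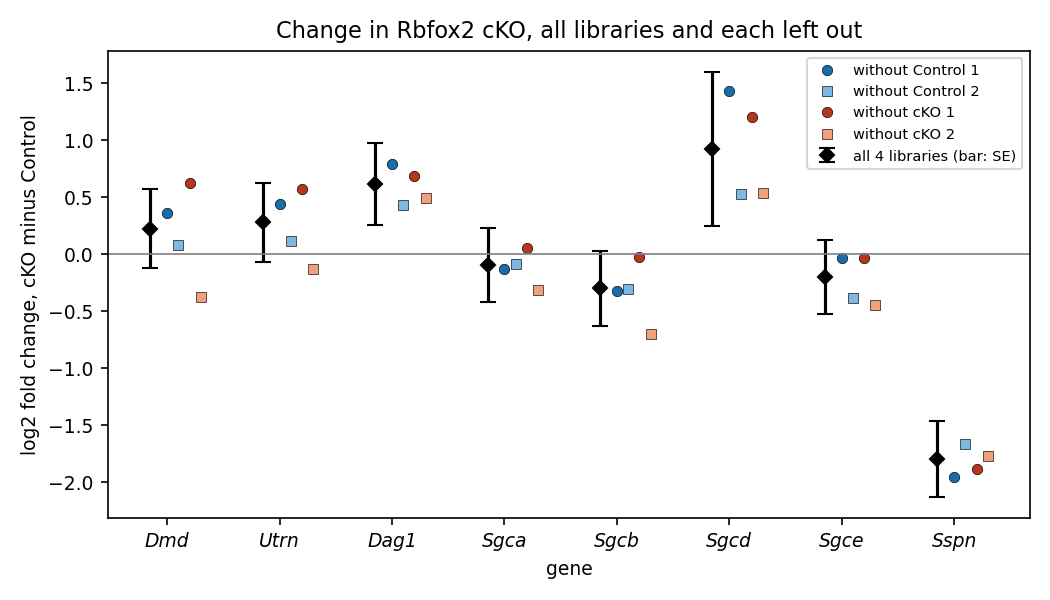
Log2 fold change between cKO and Control from edgeR for each gene. Diamonds with bars give the value and its SE over all 4 libraries, and coloured points the value with 1 library left out. Sspn stayed between -1.95 and -1.66, and Dmd and Utrn changed sign without cKO 2.

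Dmd (GRCm38 chromosome X, 82948870 to 85206141, plus strand) encodes dystrophin, the rod that joins actin to dystroglycan. Its level was 34.9 and 23.1 TPM in Control 1 and 2 and 31.2 and 44.8 TPM in cKO 1 and 2. The groups overlapped, and the 2 extremes were Control 2 and cKO 2. The mean CPM was 105.0 ± 14.3 for Control against 122.7 ± 53.2 for cKO (SD, n = 2 each), a log2 fold change of 0.23 (SE 0.35; edgeR adjusted p = 1.00). The value rested on single libraries, at 0.62 without cKO 1 (adjusted p = 0.0353 in edgeR, in a fit that called 2.26% of genes and holds 1 cKO library) and at -0.37 without cKO 2.

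Dmd has several start sites. A full-length transcript of 14910 bases in 79 exons (Dmd-203) begins at an upstream start used in muscle, and short transcripts that encode the C-terminal end begin far downstream, the longest of them with 4438 bases in 18 exons (Dmd-201). The 250 bases before each of the 2 RefSeq start sites (GRCm38.p6, plus strand, 5′ to 3′) are shown for these 2 kinds of transcript. Other short transcripts are annotated from the upstream start or from positions between the 2. The mean length below therefore does not tell which start was used. Capitals mark matches on either strand to the E-box of myogenic factors (CANNTG), to the TATA box (TATAAA), to the GC box (GGGCGG) or to the element of TEAD factors (CATTCC).
Full-length start, chrX:82948620-82948869: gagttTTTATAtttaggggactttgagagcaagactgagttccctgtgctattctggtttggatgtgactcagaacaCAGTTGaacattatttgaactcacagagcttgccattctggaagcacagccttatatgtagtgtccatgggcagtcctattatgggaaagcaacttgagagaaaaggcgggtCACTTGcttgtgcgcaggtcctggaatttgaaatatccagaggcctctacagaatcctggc
Short-form start, chrX:85048045-85048294: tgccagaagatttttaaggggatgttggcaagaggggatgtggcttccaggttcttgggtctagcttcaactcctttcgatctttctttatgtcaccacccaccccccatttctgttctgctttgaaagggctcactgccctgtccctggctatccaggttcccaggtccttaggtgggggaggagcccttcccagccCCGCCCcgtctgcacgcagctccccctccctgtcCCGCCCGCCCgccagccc
The upstream window held 2 matches to CANNTG and 1 to TATAAA and none to GGGCGG, and the downstream one held 3 to GGGCGG, of which 2 overlap, and none to the other motifs. Among 32851 RefSeq promoter windows of this length, 66.2% held CANNTG, 12.4% TATAAA, 32.7% GGGCGG and 12.6% CATTCC. A match describes the sequence and is not a measured site.

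Dividing a gene's estimated count by its TPM and by a constant of the library gives the mean length of its transcripts, weighted by their abundance. In genes with 1 annotated transcript (1905 to 2202 genes per library) this returned the annotated length within 1% for 100% of them. For Dmd the mean was 5535 and 6985 bases in Control 1 and 2 and 6188 and 5583 bases in cKO 1 and 2. The cKO values lay between those of Control. With the 14 annotated lengths, such a mean bounds the share of Dmd molecules assigned to Dmd-203: at least 10.5% and 24.3% in Control and 16.7% and 10.9% in cKO, and at most 35.5% and 45.5% in Control and 40.02% and 35.9% in cKO. The larger part of the Dmd TPM was therefore assigned to transcripts shorter than the full-length one in every library, with no separation of the groups. The deposited tables give no transcript values, so which short transcripts these were is not analysed here.

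Utrn (chromosome 10, 12382188 to 12869365, minus strand) encodes utrophin, which can take dystrophin's place at the membrane. Its TPM was 31.1 and 30.1 in Control and 39.2 and 39.95 in cKO, so that the groups did not overlap on this scale. In CPM the groups overlapped, at 99.6 and 80.0 against 86.3 and 132.1, and the log2 fold change was 0.28 (SE 0.34; edgeR adjusted p = 1.00). In limma on log2(TPM + 1) it was 0.36 (SE 0.13, adjusted p = 0.267). Leaving out cKO 2 turned the edgeR value to -0.13. The mean transcript length was 5372 and 4517 bases in Control and 4989 and 5152 bases in cKO, under the 12382 and 11801 bases of its 2 longest transcripts, which could hold at most 36.0% to 43.5% of the Utrn molecules. The ratio of Utrn to Dmd TPM was 0.892 and 1.304 in Control, and 1.26 and 0.893 in cKO, near parity in each library and without a difference between the groups beyond their spread.

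**Figure D3:**
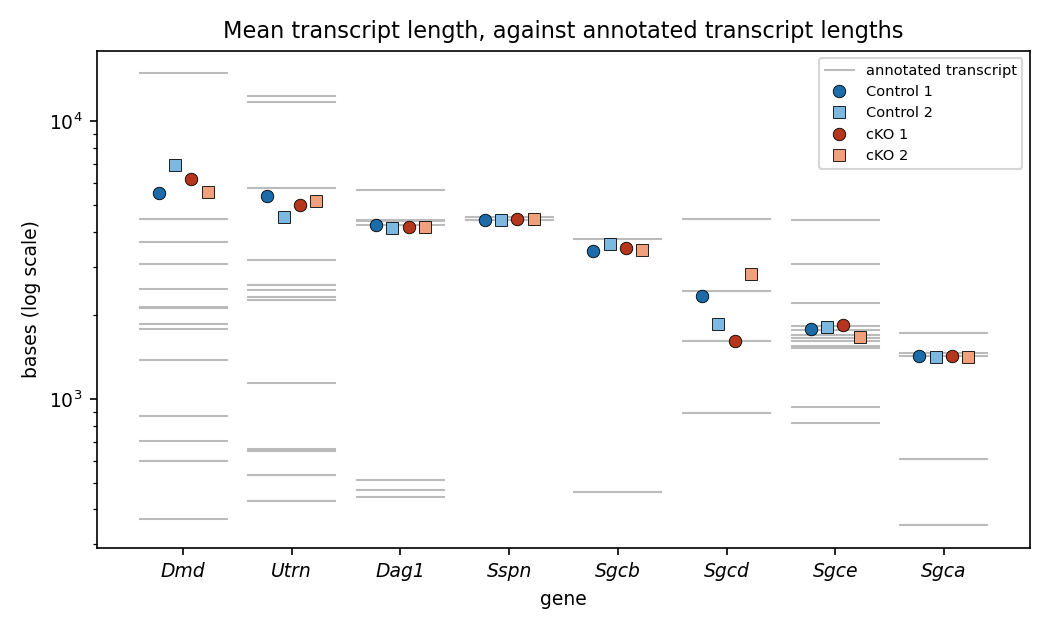
Mean transcript length in bases (log scale) of the 8 genes in each library (points), with the lengths of the annotated GENCODE M21 transcripts as grey lines. Dmd and Utrn lay far under their longest transcripts, while Sspn, Dag1 and Sgca lay close to the length of their main protein-coding transcripts.

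Dag1 (chromosome 9, 108204634 to 108263958, minus strand) encodes the precursor that is cut into alpha- and beta-dystroglycan, the laminin receptor of the complex. It stood at 103.1 and 84.4 TPM in Control 1 and 2 and at 186.9 and 138.5 TPM in cKO 1 and 2. The groups did not overlap, and cKO 1 was the highest. In CPM the means were 233.1 ± 40.2 and 357.4 ± 19.0 (SD, n = 2 each), a ratio of 1.53, against 1.74 in TPM. The log2 fold change was 0.62 (SE 0.36; edgeR adjusted p = 1.00) and 0.78 in limma on log2(TPM + 1) (SE 0.17, adjusted p = 0.118), so the difference did not pass over all genes. It ranged from 0.43 without Control 2 to 0.79 without Control 1, and passed without cKO 1 (0.68, edgeR adjusted p = 0.0138) and with library totals as the only scaling (0.78, edgeR adjusted p = 0.0352), where 0.739% of genes were called. That scaling moved the median of all genes from 0.06 to 0.25. Its mean transcript length, 4123 to 4253 bases, hardly varied.

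Sgca (chromosome 11, 94962791 to 94976327, minus strand), Sgcb (chromosome 5, 73632749 to 73647790, minus strand) and Sgcd (chromosome 11, 46896253 to 47988969, minus strand) encode alpha-, beta- and delta-sarcoglycan, and Sgce (chromosome 6, 4674350 to 4747207, minus strand) encodes epsilon-sarcoglycan, the close relative of alpha that is made in many tissues. Sgca stood at 26.6 and 28.1 TPM in Control and 31.0 and 26.0 TPM in cKO. Its log2 fold change was -0.09 (SE 0.32; edgeR adjusted p = 1.00), and its sign depended on the scaling, with 0.05 when library totals were used. Sgce stood at 33.9 and 26.7 TPM in Control and 30.6 and 29.1 TPM in cKO (-0.20, SE 0.33). For both, the 2 groups overlapped. The ratio of Sgce to Sgca TPM, 1.27 and 0.952 in Control and 0.987 and 1.12 in cKO, was close to 1. The transcripts of the alpha and epsilon forms were thus at like levels.

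Sgcb stood at 20.8 and 20.2 TPM in Control and 17.8 and 18.8 TPM in cKO. The cKO values were lower in both libraries by a small margin. The mean CPM was 42.6 ± 0.42 for Control against 34.6 ± 9.95 for cKO (SD, n = 2 each), and the log2 fold change of -0.30 (SE 0.33; edgeR adjusted p = 1.00) rested on cKO 1. Without cKO 1 it was -0.02, and without cKO 2 it was -0.70 with an edgeR adjusted p = 0.0491, in a fit that called 5.39% of genes. Sgcb has 2 annotated transcripts, so its mean length gives their shares directly: the 3786-base coding transcript held 88.6% and 95.1% of Sgcb molecules in Control and 91.8% and 90.0% in cKO, the rest being assigned to a 463-base transcript annotated as a retained intron.

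Sgcd was near the floor of detection. It had 36 and 20 estimated counts in Control and 46 and 71 in cKO, or 0.323 and 0.222 TPM against 0.741 and 0.441 TPM. Its log2 fold change of 0.93 had an SE of 0.67 (edgeR adjusted p = 1.00). Olfactory and vomeronasal receptor genes were taken as mostly silent in muscle cells, to give a rough level of stray signal. Of these 1739 genes, 46.8% and 21.9% lay below Sgcd in Control 1 and 2, against 56.1% and 83.2% in cKO 1 and 2. Their median moved the same way in cKO 1, at 0.679 TPM against 0.239 to 0.407 TPM in the other 3 libraries. The part of this background in the Sgcd values was not tested.

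Sspn (ENSMUSG00000030255.13; chromosome 6, 145931641 to 145965223, plus strand) encodes sarcospan, the small membrane protein that stabilises the sarcoglycan group. Its estimated counts were 993 in Control 1 and 1262 in Control 2, against 373 in cKO 1 and 334 in cKO 2. In TPM these were 4.74 and 5.87 against 2.19 and 1.31. Both cKO libraries lay well below both Control libraries, and each group was tight in CPM, at 13.9 ± 1.97 in Control and 4.01 ± 0.38 in cKO (SD, n = 2 each). The cKO mean was thus 0.289 of the Control mean in CPM, a log2 fold change of -1.79 (SE 0.33), and 0.330 of it in TPM. Being the value it was chosen for, this gives no test of Sspn. Every alternative kept the direction, from -1.95 without Control 1 to -1.21 in limma on log2(TPM + 1), a scale that understates changes of low genes. Sspn no longer passed without Control 1, without Control 2 (-1.66), with either other filter on low counts, or in limma.

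The Sspn counts were little exposed to other genes or to transcript choice. Its 3 annotated transcripts are close in length (4415 to 4512 bases), and the mean length was 4433 and 4434 bases in Control and 4437 and 4454 bases in cKO, higher in both cKO libraries by a few bases. Of its 50-base words 0.467% were shared with another annotated gene, mostly the antisense gene Sspnos, which shares exon bases with it and stood at 0.113 and 0.432 TPM in Control and 0.477 and 0.252 TPM in cKO. Without a stated strand setting, reads of this pair cannot be told apart. For the other 7 genes the share was 0 to 0.0175%, and no other gene shared exon bases with them. The RefSeq promoters of 7 of the 8 genes were at hand. The 250 bases before the 2 RefSeq start sites of Sspn, the gene that differed most, are shown with the same motifs in capitals. GENCODE M21 starts Sspn-203 at 145931641, so the upstream window lies mostly within the span of that transcript. It also starts Sspn-202 at 145953429, for which no window is shown.
Upstream start, chr6:145931623-145931872: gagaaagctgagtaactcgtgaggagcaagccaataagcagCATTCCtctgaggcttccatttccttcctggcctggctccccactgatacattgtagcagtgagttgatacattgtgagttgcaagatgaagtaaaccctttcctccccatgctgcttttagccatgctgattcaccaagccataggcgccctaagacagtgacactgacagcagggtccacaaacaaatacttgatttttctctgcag
Downstream start, chr6:145933872-145934121: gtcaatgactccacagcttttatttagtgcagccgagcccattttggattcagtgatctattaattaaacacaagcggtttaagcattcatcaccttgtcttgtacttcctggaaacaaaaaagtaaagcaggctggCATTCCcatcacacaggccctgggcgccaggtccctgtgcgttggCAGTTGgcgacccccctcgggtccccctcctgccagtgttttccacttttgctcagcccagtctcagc
Each window held 1 CATTCC match, and the downstream one also 1 CANNTG match. Neither held TATAAA or GGGCGG. The gene totals do not say which start was used.

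Rbfox proteins bind RNA at UGCAUG, written TGCATG below, mostly in introns, where they steer splicing, and also in untranslated ends. Only annotated exons could be read here, in the longest protein-coding transcript of each gene and on its own strand. Sspn held 2 matches, Dmd 6, Utrn, Sgcb, Sgcd and Sgce 2 each, Dag1 1 and Sgca 0. The sites of the 2 genes that differed most among the well-detected ones are shown with the motif in capitals (GENCODE M21, GRCm38, 5′ to 3′ on the transcript).
Sspn, coding, chr6:145961169-145961174: ctgatggtcTGCATGctggctgtg
Sspn, 3′ untranslated, chr6:145963138-145963143: agacaaaatTGCATGaatgccaca
Dag1, coding, chr9:108208212-108208217: agtattttaTGCATGccacagaca
Among transcripts within 10% of its length, 71.6% held the motif for Sspn and 77.9% for Dag1, so a match is common at these lengths and sets neither gene apart. A match is not evidence of binding.

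Measured against the transcripts of its partners, that of Sspn was at a lower level in cKO. The ratio of Sspn to Sgcb TPM was 0.227 and 0.291 in Control and 0.123 and 0.0697 in cKO, and that of Sspn to Sgca was 0.178 and 0.209 against 0.0707 and 0.0504. The same order held against Sgce, Dmd, Utrn and Dag1, with no overlap of the groups. These ratios carry the Sspn values it was chosen for and are a description. Without Sspn, the ratio of Sgcb to Sgca overlapped between the groups (0.784 and 0.718 in Control, 0.575 and 0.724 in cKO). Those of Sgce to Sgca and Utrn to Dmd also overlapped. The ratio of Dag1 to Sgca did not, at 3.88 and 3.01 in Control and 6.03 and 5.33 in cKO. Since Utrn was higher and Sgcb lower in TPM in both cKO libraries, their ratio separated too. Most other pairs are not reported here, so fixed proportions among the other genes are not shown. Dag1 alone gave 40.4% and 38.6% of the summed TPM of the 8 genes in Control and 55.0% and 46.4% in cKO, and the 7 others summed to 152.3 and 134.3 TPM against 152.8 and 160.3 TPM.

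**Figure D4:**
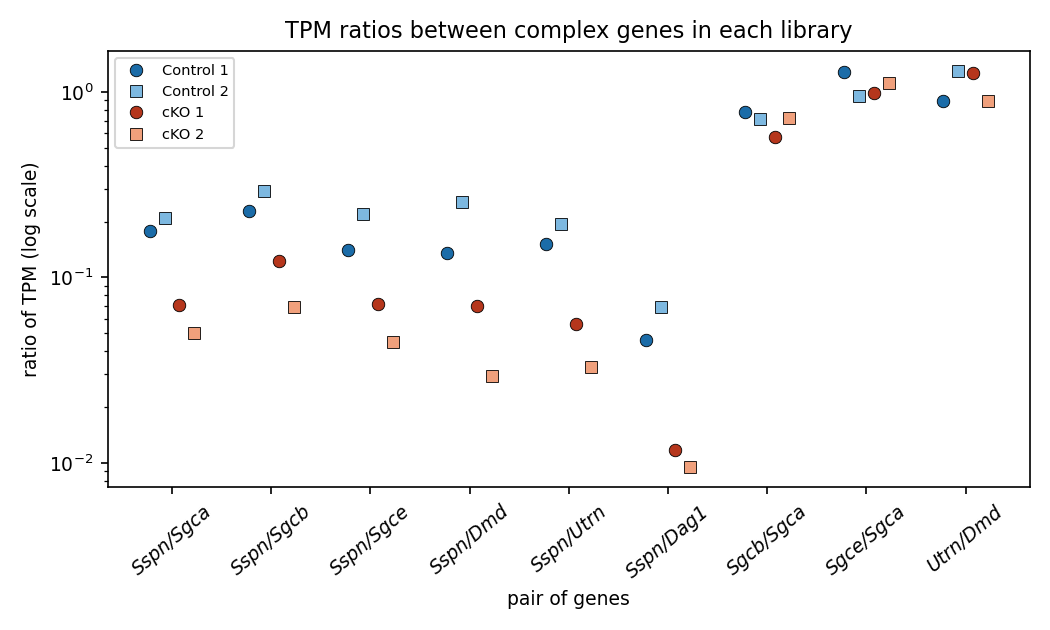
Ratios of TPM between pairs of genes of the complex (log scale), 1 point per library. The 6 ratios with Sspn on top were lower in both cKO libraries, while Sgcb/Sgca, Sgce/Sgca and Utrn/Dmd overlapped between the groups.

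The 5 genes whose centred log2(TPM + 1) values lay closest to those of Sspn over the 4 libraries, among 16799 genes compared, were Igf1, Mmp2, Mgarp, Gm21887 and Smim10l1, at Euclidean distances of 0.137 to 0.232. Igf1, an insulin-like growth factor, stood at 6.54 and 8.72 TPM in Control and 3.55 and 2.47 TPM in cKO. Mmp2, a gelatinase that cuts basement membrane collagen, stood at 152.3 and 180.7 TPM against 94.3 and 64.0 TPM. With 4 libraries such likeness describes only this arrangement.

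Genes around the complex were read from 4 lists: other subunits and cytoplasmic partners, dystroglycan glycosylation enzymes, extracellular ligands, and costamere or membrane-link proteins. Over all genes tested, 0.551% passed in either direction and 0.186% were lower in cKO, with a median of 0.06. A list this short with 0 calls is thus not set apart from all genes. Of the 12 subunits and partners 0 fell, and the list median was 0.18. The beta-syntrophin Sntb2, at 21.3 and 17.9 TPM in Control and 33.1 and 24.7 TPM in cKO, was the gene of this list with the highest mean TPM (0.37, adjusted p = 1.00 in edgeR).

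The 17 enzymes that build or prime the sugar chains of alpha-dystroglycan gave 0 past the threshold in either direction. Their median was -0.12, and the highest value was 0.92 for B4gat1. The 2 with the highest mean TPM were B3galnt2, at 42.6 and 53.4 TPM in Control and 66.6 and 35.3 TPM in cKO, and Dpm2, at 29.2 and 31.9 against 28.2 and 33.1 TPM. The groups overlapped for both.

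Among the 11 extracellular ligands 1 fell, Lamb1, 0 rose and 10 did not pass, with a median of 0.19. Lamb1, a beta chain of laminin, stood at 10.7 and 12.6 TPM in Control and 7.51 and 3.98 TPM in cKO (log2 fold change -1.28, SE 0.33; edgeR adjusted p = 0.0255), and passed in 5 of 12 alternatives, not without Control 1 or Control 2. The laminin chain that dystroglycan binds in muscle, Lama2, had a mean CPM of 185.0 ± 19.6 for Control against 187.2 ± 57.2 for cKO (SD, n = 2 each). The groups overlapped in CPM but not in TPM, at 40.87 and 36.35 TPM in Control and 44.24 and 46.08 TPM in cKO. In limma on log2(TPM + 1) the Lama2 difference was 0.22 (SE 0.14, adjusted p = 0.485). Of the 12 costamere and membrane-link genes 0 passed, with a median of 0.18. Flnc, an actin cross-linker that binds sarcoglycans, stood at 304.5 and 290.0 TPM in Control and 515.4 and 371.8 TPM in cKO (0.40, SE 0.40). Cav1, of membrane caveolae, stood at 279.6 and 270.5 TPM in Control and 327.5 and 368.5 TPM in cKO (0.11, SE 0.36).

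**Figure D5:**
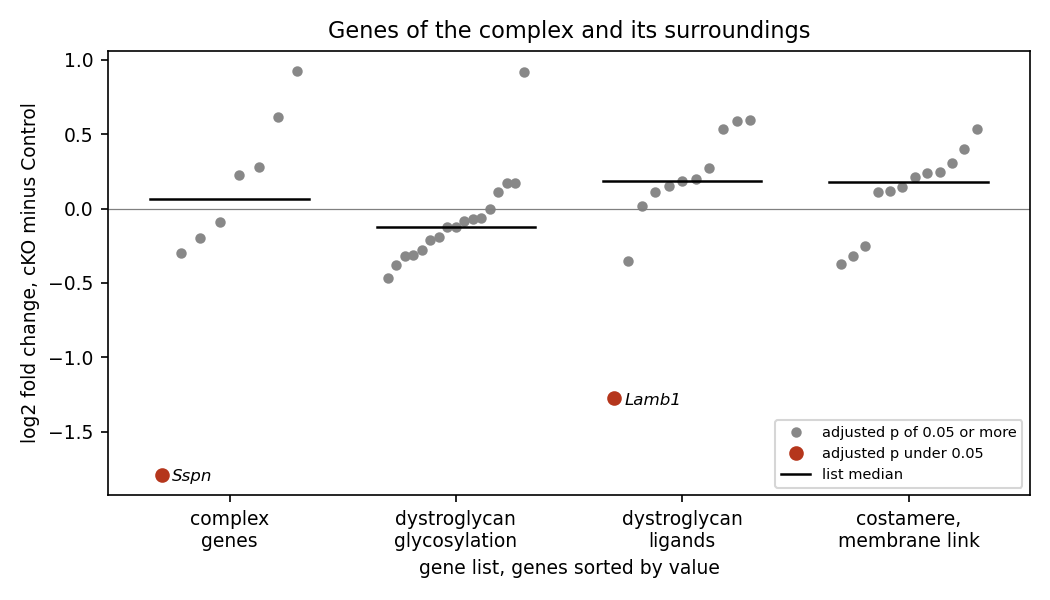
Log2 fold change (cKO minus Control, edgeR) of the 8 genes of the complex and of 3 lists around it (glycosylation enzymes, ligands, and costamere or membrane-link proteins), 1 point per gene, with list medians as bars. Red points passed an adjusted p of 0.05: Sspn (-1.79) and Lamb1 (-1.28), both below 0.

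Several of these genes are also active in other cells of muscle. Markers of smooth muscle and pericytes (7 of 7 at a mean TPM of at least 1) summed to 207.4 and 198.8 TPM in Control and 256.7 and 204.4 TPM in cKO, and those of fibro-adipogenic cells (6 of 6) to 598.6 and 700.5 against 685.2 and 578.2 TPM. Both overlapped between the groups. Endothelial markers (6 of 6) summed to 116.3 and 126.3 TPM in Control and 155.5 and 129.4 TPM in cKO, Schwann cell markers (5 of 5) to 27.9 and 28.0 against 39.0 and 35.1 TPM, macrophage markers (3 of 5) to 19.5 and 18.9 against 24.7 and 26.2 TPM, and erythroid markers (5 of 5) to 336.3 and 762.5 against 1798 and 1471 TPM. These 4 sums were higher in both cKO libraries, as were Dag1 and the TPM of Utrn. Cd68 made up most of the macrophage sum, at 15.95 and 13.85 TPM in Control and 16.36 and 23.37 TPM in cKO. Itgam was lower in both cKO libraries, and Ptprc, Adgre1 and Csf1r overlapped. The sum of fibre markers (8 of 10) was lower in both, as were Sspn and Sgcb. In cKO 1 the fibre sum stood at 93.5 TPM, close to the 94.9 TPM of Control 2. Acta1, Tnnt3 and Actn3 were lower in both cKO libraries, Myh2 was higher in both, and the other fibre markers overlapped. No marker was at 0 in any library. The part of other cells in these values was not tested.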

How the data were processed

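RNA-seq of 2 Control and 2 Rbfox2 cKO satellite cell libraries was analysed from 2 deposited tables. Per the submitters' processing notes, the tools were StringTie 1.3.6 and HISAT2 2.1.0 on GRCm38, with no role or order given. Per the labels' protocols, cDNA followed the SMART-Seq protocol from a low RNA input. Strand setting, annotation release and filters were not given in the sources used here. The authors deposited estimated counts per gene, as whole numbers, which were used without rounding. They also deposited TPM, which keep no depth.

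Counts were tested across all genes with edgeR 4.0.16 in R 4.3.3 (TMM, filterByExpr, robust quasi-likelihood, Benjamini-Hochberg adjustment, threshold 0.05). The SE was taken as the absolute log2 fold change over sqrt(F). TPM were tested with limma 3.58.1 on log2(TPM + 1) at a mean TPM of at least 1. GENCODE M21 gave coordinates and transcript lengths, with the same identifier versions for the 8 genes. RefSeq (GRCm38.p6) gave promoters. Scripts were tested on simulated data. The members, lists and tests were chosen with earlier results of these data known. Named besides the 8 genes were Rbfox2, list genes past the threshold or, where none passed, the 2 with the highest mean TPM, and the 5 genes nearest to Sspn. Sntb2, Lama2, B4gat1 and Sspnos were named after their values were seen. Results of some list genes are not reported here.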

Additional observations from a re-analysis of the deposited data

How the results depend on the processing

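The number of genes called in edgeR, 210 of 38143, was 119 with DESeq2 size factors, 28 when low counts were not filtered, 14 when 2 libraries had to reach a CPM of 5, 92 in DESeq2 1.42.0, 129 with mean transcript length as an offset and 53 in limma on TPM, and between 51 and 2267 with 1 library left out. With library totals only it was 282, of which 74 were among the 210. With the replicate block it was 96, of which 86 were among the 210, and 1 of the 8 genes, Sspn, was called with the replicate block as without it. Same-numbered libraries also share a code in the column headers, whose meaning the labels do not give, and their deviations correlated at -0.21 across 10579 genes. The crossed pairing, added after seeing the data, called 243 genes.

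Of the 8 genes 1 was called. The count was 2 with library totals only (Dag1 and Sspn), 0 when low counts were not filtered, 0 when 2 libraries had to reach a CPM of 5 and 0 in limma on TPM. With 1 library left out it lay between 0 and 3: 0 without Control 1 or without Control 2, 3 without cKO 1 (Dag1, Dmd and Sspn) and 2 without cKO 2 (Sgcb and Sspn). A fit without a library takes the spread of the lone library from the other group. In limma on TPM 0 were called, and 2 with no filter on low values (Dag1 and Sspn). Sspn, Dag1, Sgcb, Sgcd and Sgce kept their sign in each alternative that gave a value, 12 for each gene and 10 for Sgcd. With 1 library left out Dmd ranged from -0.372 (without cKO 2) to 0.624, Utrn from -0.127 (without cKO 2) to 0.569 and Sgca from -0.309 to 0.0528. Sgca turned to 0.0528 with library totals only and without cKO 1, to 0.018 when 2 libraries had to reach a CPM of 5 and to 0.0531 in limma on TPM. The cause of these changes was not tested. With 2 libraries a group the spread between libraries limits the well-detected genes, and depth limits Sgcd.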

Other observations

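The mean transcript length of the targeted gene, Rbfox2, was 4453 and 3476 bases in Control 1 and 2 and 4354 and 1945 bases in cKO 1 and 2, against annotated transcripts of 417 to 6907 bases. The groups overlapped, with cKO 1 between the Control libraries. The cKO 2 library, which had the lowest Rbfox2 level, also had the shortest mean.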
